A study of Mus musculus with 6 samples.

Results

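The 33 genes described here encode plasma proteins of blood clotting and of complement that are secreted mainly by the liver, 18 of coagulation and its inhibitors and 15 of complement. They were chosen by symbol, and all 33 were found among the 54532 genes of the count table and passed the filter on low counts. The table holds RNA sequencing of whole liver from 6 mice on the C57BL/6J/Rj background, 3 controls and 3 knockouts. The controls (labelled WT) were littermates of the genotype LysM+/+ Cd44flox/flox, and the knockouts (labelled CD44 KO LysM) were LysMcre/+ Cd44flox/flox. The floxed Cd44 gene was therefore shared by all mice. Cre recombinase at the LysM locus deletes it in myeloid cells, that is in macrophages, monocytes and neutrophils, and hepatocytes are not its target. Every mouse had the Lieber-DeCarli liquid diet at 6% (vol/vol) ethanol during 10 days. Day 11 brought 1 gavage of 5 g/kg ethanol, and livers were taken after another 9 hours. Age and sex are not given in the sources used here. Neither livers without ethanol nor livers with Cre alone were analysed here. Effects of Cre and of its insertion therefore cannot be told apart from loss of Cd44, the hyaluronan receptor whose role in myeloid cells of the alcohol-exposed liver the comparison addressed.

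Clotting factors circulate as inactive precursors that cut and activate one another until thrombin turns fibrinogen into fibrin, and inhibitors such as antithrombin, protein C and protein S limit the reaction. Complement proteins form a parallel protease cascade, started by antibody, by sugar-binding lectins or by spontaneous turnover of C3, that ends in a pore made of the terminal components. Hepatocytes make most of both sets, under factors such as HNF4A and C/EBP alpha, and inflammation raises fibrinogen and C3 through interleukin-6 and STAT3. Liver injury is known for reduced synthesis of clotting factors.

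Libraries held 18428224 to 24042917 counts, so that 3 counts corresponded to 0.12 to 0.15 CPM (read counts scaled to a common library size). CPM values below use library sizes scaled by edgeR's TMM method (trimmed mean of M values). A log2 value above 0 means higher in knockouts, and SE is the standard error of the log2 value. Adjusted p-values come from edgeR's quasi-likelihood test with Benjamini-Hochberg adjustment over the 14758 genes tested, and "rose" and "fell" are used at an adjusted p under 0.05. The labels were checked on Cd44, at 26.4 to 34.8 CPM in the controls and 1.92 to 3.01 CPM in the knockouts (log2 −3.73, SE 0.20, adjusted p = 9.07e-05). All 7 hepatocyte markers on the list (Alb, Ttr, Apoa1, Apoa2, Serpina1a, Cps1, Ahsg) were expressed in every liver.

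Most of these plasma protein genes were expressed more in the knockout livers, by moderate amounts. Of the 33 genes, 19 rose and 2 fell (63.6% called, against 25% of all genes tested), and 12 did not pass. Across all genes 11.9% rose and 13.1% fell. The median log2 change was 0.60 over the 33 genes, 0.54 over the coagulation genes and 0.61 over the complement genes, and −0.01 over all genes tested. The 19 increases ran from 1.48-fold for Masp1 to 3.08-fold for Klkb1, and 4 of them reached 2-fold (F7, F11, Klkb1 and C8g). The 2 decreases belonged to Pros1 and C6. With TMM scaling, knockout and control livers did not overlap for 26 of the 33 genes, 24 higher and 2 lower (78.8%). Of all genes tested 43.8% did not overlap, 21.4% separate and higher and 22.5% separate and lower.

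These directions are relative to the scaling. With library totals in place of TMM, the median of all genes moved from −0.01 to −0.26, the median of the 33 genes was 0.34, 12 rose and 3 fell (6.13% of all genes higher and 25.1% lower, or 904 and 3698 genes, against 1751 and 1933 with TMM). As a sum, the hepatocyte markers were higher too. They summed to 76970 to 93011 CPM in the controls and to 105586 to 140302 CPM in the knockouts. Of the 7, 3 rose (Ttr, Apoa2 and Cps1), with a median log2 change of 0.67 over the 7, close to that of the 33 genes. Alb, with a mean of 57236 of the summed 85819 CPM in the controls, did not pass (log2 0.55, adjusted p = 0.131). Serpina1a did not pass either (log2 0.67, adjusted p = 0.0547), and Apoa1 and Ahsg overlapped between the groups (log2 −0.13 and 0.02). When the libraries were scaled on those 7 markers, an alternative chosen after seeing the data, 3 genes rose (F7, Klkb1 and C8g), 3 fell (F8, Pros1 and C6), and the median was −0.07. Across all genes 2.77% rose and 51.9% fell under that scaling, and their median was −0.68. With library totals the log2 values of the fibrinogen chains, F8, Kng1, C2 and C3 were below 0, and with hepatocyte markers also those of F5, F12, Serpind1, Cfb and C8a, none of which passed with TMM. With hepatocyte markers the log2 values of F2, Serpinc1, Mbl1, Mbl2, Masp1, Cfi and C8b, which rose with TMM, were below 0 as well. In whole liver, fewer cells of a type and less RNA per cell cannot be told apart. The part of hepatocyte content in the increases was not tested. The scaling on hepatocyte markers is no such test, because it divides by genes whose median log2 change was 0.67 in these same livers. Without control 2 the count over all genes was 2275, and without knockout 1 it was 2296, against 3684 with all livers.

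**Figure D1:**
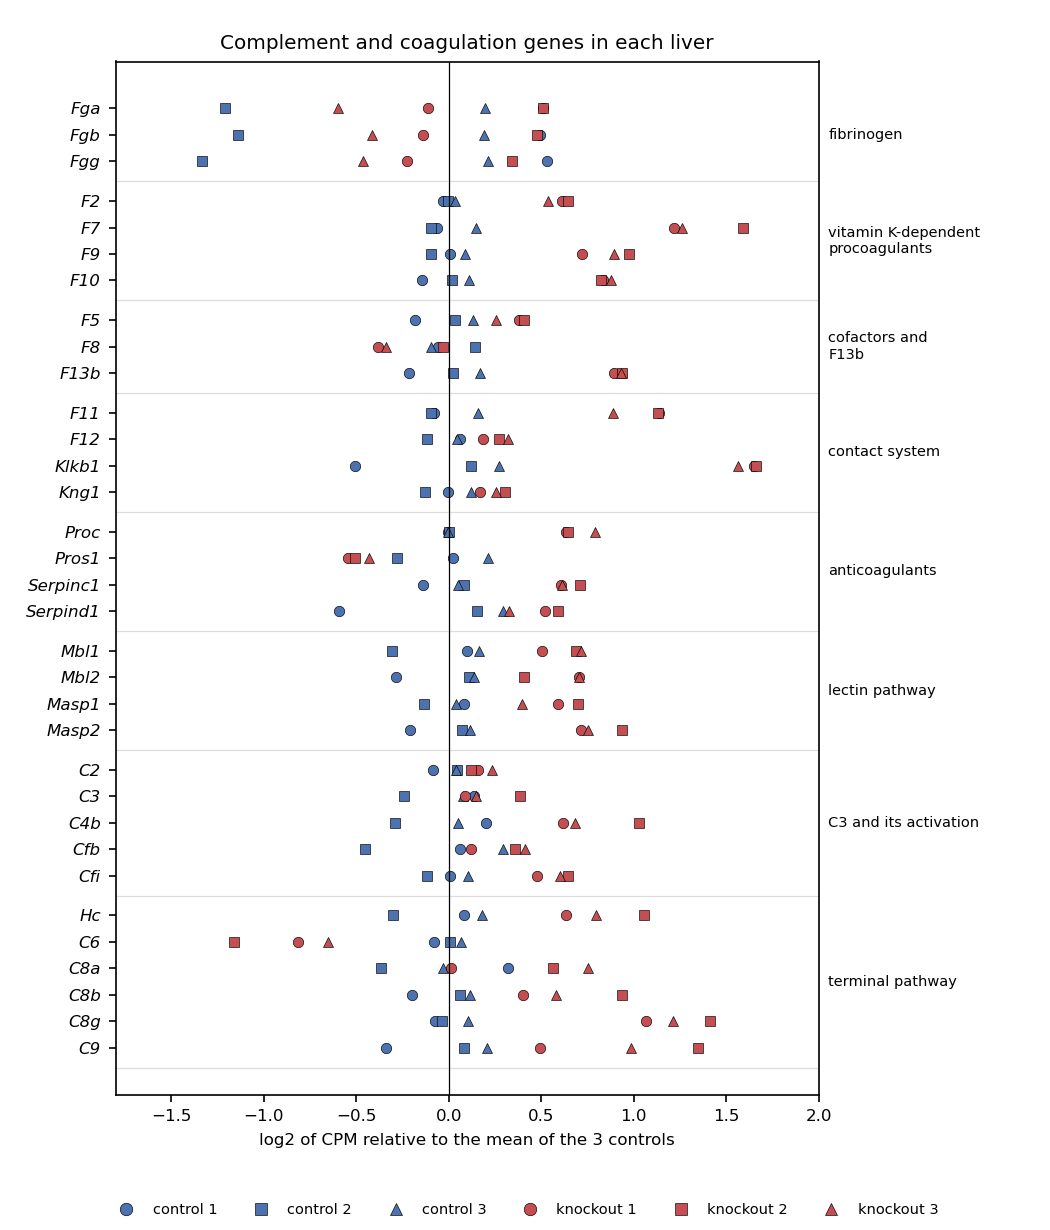
Each row is a gene and each point a liver, on a horizontal axis of the log2 of its CPM relative to the mean of the 3 controls (blue, controls; red, knockouts; circle, square and triangle, mice 1, 2 and 3). Red points lie to the right of all blue points for 24 of the 33 genes with TMM scaling, to the left for Pros1 and C6, and the fibrinogen chains spread widely within both groups.

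**Figure D2:**
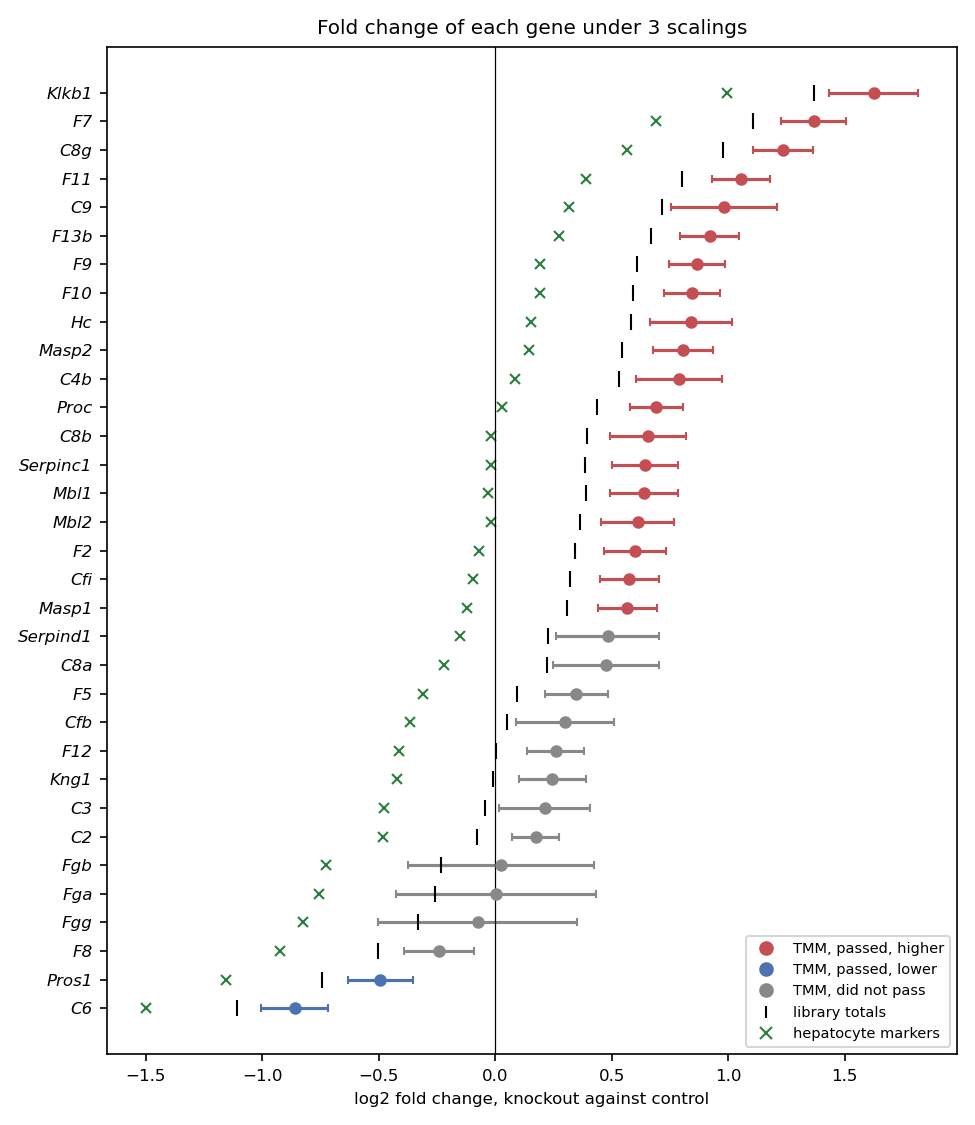
The log2 fold change of each gene is plotted with TMM scaling (circles with bars of 1 SE; red rose, blue fell, grey did not pass), with library totals (ticks) and with scaling on hepatocyte markers (crosses). The order of the genes is nearly kept while the whole set moves left, and with hepatocyte markers the median is −0.07 and 7 of the 19 genes that rose have a log2 value below 0.

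Promoter sequences are shown for 5 genes, 3 that rose (F7, F9, F11) and 2 fibrinogen genes that did not pass, because these genes are under hepatocyte and acute-phase control. They are the bases just before the RefSeq start (GRCm38.p6), 250 in each but Fga, for which 77 bases that GENCODE M21 places in the gene were left out. Capitals mark matches to a C/EBP motif (TTGCNNAA) or a STAT motif (TTCNNNGAA) on either strand, and the matches do not overlap.
F7 chr8:13025784-13026033 (plus strand): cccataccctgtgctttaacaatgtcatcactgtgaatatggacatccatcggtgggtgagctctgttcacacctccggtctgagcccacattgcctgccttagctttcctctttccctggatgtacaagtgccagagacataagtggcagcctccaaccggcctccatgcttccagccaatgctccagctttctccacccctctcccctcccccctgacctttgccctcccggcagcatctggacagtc
F9 chrX:59999214-59999463 (plus strand): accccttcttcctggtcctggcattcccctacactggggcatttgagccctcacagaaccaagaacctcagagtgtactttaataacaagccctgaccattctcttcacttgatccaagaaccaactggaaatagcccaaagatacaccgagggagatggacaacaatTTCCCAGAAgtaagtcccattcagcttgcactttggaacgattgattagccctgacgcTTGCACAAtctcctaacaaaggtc
F11 chr8:45262032-45262281 (minus strand): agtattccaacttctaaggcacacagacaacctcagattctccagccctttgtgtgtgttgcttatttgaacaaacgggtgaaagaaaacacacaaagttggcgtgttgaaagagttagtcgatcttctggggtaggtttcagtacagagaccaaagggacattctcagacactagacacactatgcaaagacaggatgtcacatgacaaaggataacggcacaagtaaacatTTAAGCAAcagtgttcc
Fga chr3:83025903-83026075 (plus strand): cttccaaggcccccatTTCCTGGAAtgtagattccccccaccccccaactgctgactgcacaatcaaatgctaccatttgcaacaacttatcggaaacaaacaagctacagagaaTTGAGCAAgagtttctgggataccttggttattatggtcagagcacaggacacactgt
Fgb chr3:83049864-83050113 (minus strand): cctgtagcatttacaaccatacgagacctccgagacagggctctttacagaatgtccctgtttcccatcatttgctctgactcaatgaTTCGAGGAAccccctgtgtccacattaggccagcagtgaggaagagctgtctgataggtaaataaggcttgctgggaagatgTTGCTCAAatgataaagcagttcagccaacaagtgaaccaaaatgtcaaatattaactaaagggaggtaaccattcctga
F9 and both fibrinogen promoters held 1 match of each kind, F11 held a C/EBP match 17 to 10 bases before its start, and F7 held neither. RefSeq promoters of 26 of the 33 genes were used (those of Cfb, C4b, Kng1, Proc, C2, Cfi and Masp1 were not included). In the 250 bases before the start, the C/EBP motif was present in 7 of the 26, against 9.56% of all 32851 promoters in the table. It lay in 4 genes that rose (C9, F11, F9, Klkb1) and 3 that did not pass (C3, Fga, Fgb). The STAT motif was present in 6 of the 26 (C8a, F9, Fga, Fgb, Masp2, Pros1), against 7.02% of all promoters. An HNF4 motif (AAAGTCC) was present in 1 of the 26 (C8a), against 3.58%. An HNF1 motif was present in 2 of the 26 (F13b and Hc, which both rose), against 0.371% of all promoters. A match describes letters only.

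Levels were compared between genes on a scale like TPM, that is counts per kilobase of merged exons, scaled so that their sum over all genes with a known length is the same in each liver. On this scale the genes ranged widely. C3 stood first, at 6499.99, 5127 and 6048 in the controls and 5436, 6088 and 5621 in the knockouts. The fibrinogen genes Fga, Fgg and Fgb followed with control means of 4335, 4128 and 3156, then Kng1 (1729) and F2 (896). At the other end stood C2 (22.3), Cfb (6.76) and F8 (3.36). The places of C2, Cfb and Klkb1 are uncertain, because part of their exonic bases also belongs to another annotated gene on the same strand. In the order of control means, 19 of the 32 neighbouring pairs differed by no more than the larger SD of the pair, among them C3 and the fibrinogen chains. The first 6 places were the same in both groups. Klkb1 moved from place 30 in the controls to 26 in the knockouts, F7 from 25 to 21, C8g from 17 to 14 and Pros1 from 26 to 29.

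**Figure D3:**
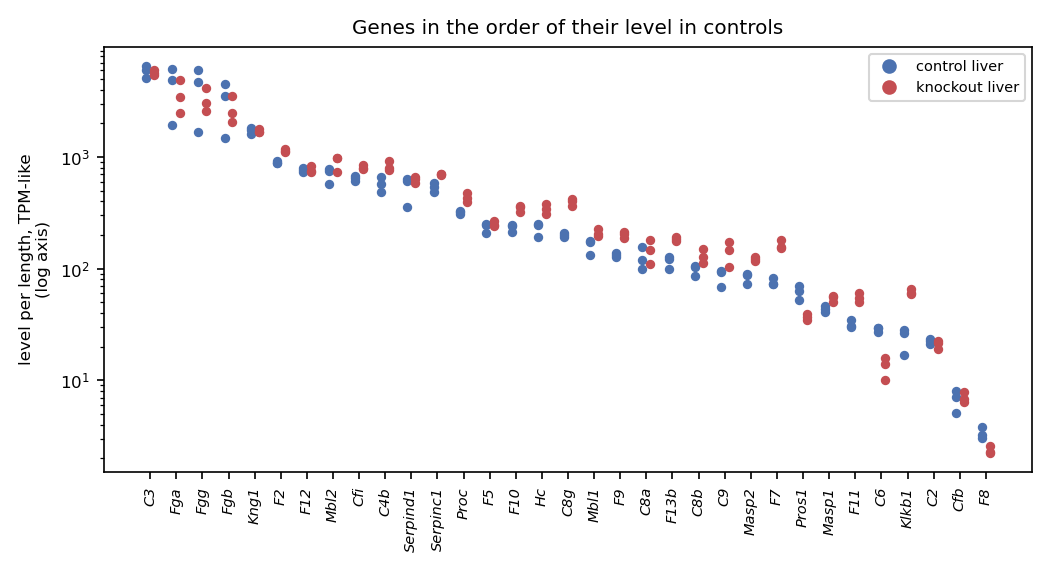
Points are single livers (blue, controls; red, knockouts), on a logarithmic vertical axis of TPM-like levels (counts per kilobase of merged exons, scaled to the same sum in each liver), and the genes are ordered by their control mean. Levels run from C3 and the fibrinogen chains to F8 at 2.23 to 3.795. The places of C2, Cfb and Klkb1 are uncertain, because they share exonic bases with other annotated genes.

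All 33 genes together took 3.75% ± 0.81 of the counts in the controls and 3.79% ± 0.39 in the knockouts (mean ± SD, n = 3 livers per group), and the groups overlapped. That total is dominated by fibrinogen and C3, for each of which the shares of the groups overlapped. Without them the other 29 genes took 1.19%, 1.20% and 1.27% of the counts in the controls and 1.49%, 1.53% and 1.54% in the knockouts, so that each knockout lay above every control.

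The fibrinogen genes were the most variable of the set within each group. The chains of fibrinogen are encoded by Fga, Fgb and Fgg, which are neighbours on chromosome 3 (Fgg 83007724 to 83015049, Fga 83026076 to 83033627, Fgb 83040141 to 83049863). Fga stood at 6768, 2062 and 5454 CPM in control livers and 4398, 6781 and 3140.3 CPM in knockout livers. Fgb stood at 6167, 1996 and 4999 CPM in control livers and 3989, 6109.96 and 3296 CPM in knockout livers. Fgg stood at 4561, 1251 and 3649 CPM in control livers and 2694, 3993 and 2292 CPM in knockout livers. Control 2 was the lowest of all 6 livers for each chain, control 1 and knockout 2 were high, and the groups overlapped. None of the 3 passed by edgeR, DESeq2 or limma-voom or had an unadjusted p under 0.05 by edgeR (log2 0.00, 0.03 and −0.08, with SE of 0.43, 0.40 and 0.43 and adjusted p of 0.996, 0.972 and 0.92), and with library totals or hepatocyte markers their log2 values were below 0. With this spread, a change as large as the median of the 33 genes was not detectable. The coefficient of variation within the controls was 49% to 54.2% for the chains, against a median of 10.4% for the other 30 genes. The highest of those was 29.8%, for Serpind1. Within the knockouts it was 29.7% to 38.7% for the chains, little above the 28.7% of C9, with a median of 9.06% for the other genes.

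The 3 chains varied together from liver to liver. The level of Fga per length was 1.39, 1.31 and 1.38 times that of Fgb in the controls and 1.396, 1.405 and 1.21 times in the knockouts. The ratio of Fgg to Fgb was 1.35, 1.14 and 1.33 in the controls and 1.23, 1.19 and 1.27 in the knockouts, and neither ratio separated the groups. Other acute-phase genes varied between livers as well. Saa1, a serum amyloid A gene, stood at 188, 28.2 and 48 against 87.7, 43.3 and 132 CPM in controls and knockouts, and Hp, haptoglobin, at 7462, 4063 and 6562 against 4166, 5575 and 4156 CPM, and neither passed (adjusted p = 0.993 and 0.307). Of the 12 acute-phase genes on the list, 2 rose (Crp and Itih4) and 2 fell (Lcn2 and Cp). That is 16.7% each, near the 11.9% and 13.1% of all genes tested.

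**Figure D4:**
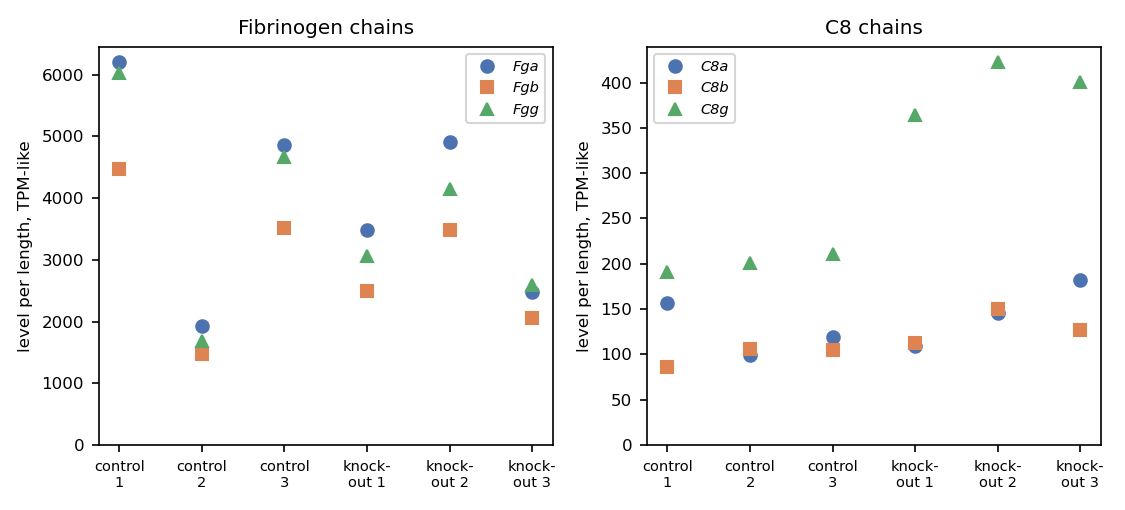
Points are the levels of single chains in each liver, on a vertical axis of TPM-like levels (counts per kilobase of merged exons, scaled to the same sum in each liver) that starts at 0. The 3 fibrinogen chains are low together in control 2, whereas C8g is at 364 to 422 in the knockouts against 191 to 211 in the controls, C8b is at 86.4 to 106 in the controls and 113 to 149.7 in the knockouts, and C8a overlaps.

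The 4 vitamin K-dependent procoagulants, proteases whose precursors need gamma-carboxylation to bind membranes, all rose with TMM scaling, and F2 had a log2 value below 0 with hepatocyte markers. F7 (ENSMUSG00000031443, chromosome 8, 13026034 to 13035809) encodes factor VII, which starts clotting together with tissue factor. It stood at 48.9, 47.9 and 56.7 CPM in control livers and 119, 154 and 123 CPM in knockout livers (log2 1.37, SE 0.14, adjusted p = 0.000755). Every knockout was more than 2-fold above every control. F10, which encodes the protease that activates prothrombin, stood at 209, 234 and 249 CPM in control livers and 410.1, 408 and 423 CPM in knockout livers (log2 0.84, SE 0.12, adjusted p = 0.00233). F9, the factor missing in haemophilia B, stood at 132, 123 and 139 CPM in control livers and 216, 258 and 244 CPM in knockout livers (log2 0.87, SE 0.12, adjusted p = 0.00207). F2 encodes prothrombin and stood at 1463, 1493 and 1527 CPM in control livers and 2281, 2336 and 2171 CPM in knockout livers (log2 0.60, SE 0.13, adjusted p = 0.0137). The groups were separate for all 4 genes. F2 had an adjusted p of 0.0551 without knockout 1 and 0.0669 with library totals (range over 17 alternatives 2.48e-06 to 0.774). The increase of F7 was the only one of the 4 that passed with hepatocyte markers (log2 0.69, adjusted p = 0.0153, range over 17 alternatives 2.95e-15 to 0.0153). F7 and F10 are neighbours, 1498 bases apart on chromosome 8, and the level of F7 per length was 0.344, 0.301 and 0.334 of that of F10 in the controls and 0.427, 0.554 and 0.426 in the knockouts, so that the ratio was higher in each knockout.

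Of the cofactors and the transglutaminase subunit, 1 of 3 rose. F13b, the carrier subunit of the enzyme that crosslinks fibrin, stood at 91.7, 108 and 119.6 CPM in control livers and 197, 204 and 203 CPM in knockout livers (log2 0.92, SE 0.13, adjusted p = 0.00202). The knockouts lay close to one another and above every control. F5, the cofactor of the prothrombin-activating protease, stood at 562, 651 and 696 CPM in control livers and 828, 843 and 759 CPM in knockout livers and did not pass although the groups were separate with TMM scaling (log2 0.35, SE 0.14, adjusted p = 0.0952). It was the only gene of the 12 not called that had an unadjusted p under 0.05, and DESeq2 gave it an adjusted p of 0.0495 (range over 17 alternatives 0.0495 to 0.615). On the TPM-like scale the groups overlapped for F5, and with library totals its log2 value was 0.09. F8, the cofactor missing in haemophilia A, is made mainly by endothelial cells, and it had the lowest level per length of the set. It stood at 11.6, 13.3 and 11.3 CPM in control livers and 9.25, 11.8 and 9.51 CPM in knockout livers (log2 −0.24, SE 0.15, adjusted p = 0.279), and the groups overlapped through knockout 2. F8 fell with library totals (log2 −0.50, adjusted p = 0.0354) and with hepatocyte markers (log2 −0.92, adjusted p = 0.00661, range over 17 alternatives 0.00661 to 0.613). Of 6 sinusoidal endothelial markers 0 passed by edgeR (2 at an unadjusted p under 0.05) and 1 by DESeq2 or limma-voom, and they summed to 199 to 241 CPM in the controls and 165 to 228 CPM in the knockouts. Knockout 2 was the highest knockout in both F8 and the endothelial sum, and the part of endothelial content was not tested.

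Contact system genes, whose products activate one another on negatively charged surfaces and release bradykinin, were all higher in each knockout than in any control with TMM scaling, but 2 of the 4 passed. Klkb1 (ENSMUSG00000109764, chromosome 8, 45266689 to 45294859) encodes plasma prekallikrein and had the largest increase of the set. It stood at 32.2, 49.7 and 55.2 CPM in control livers and 143, 144 and 135 CPM in knockout livers (log2 1.62, SE 0.19, adjusted p = 0.0012). Control 1 was the lowest, and the knockouts lay close together above all controls. Of the 5249 exonic bases of Klkb1, 2267 also belong to Gm45753, an annotated gene on the same strand with 5 counts over the 6 livers, so its level is uncertain. F11, which encodes the factor XI protease, lies 4657 bases from Klkb1 on the same strand. It stood at 24.4, 24.1 and 28.7 CPM in control livers and 56.4, 56.3 and 47.6 CPM in knockout livers (log2 1.05, SE 0.13, adjusted p = 0.0012). F12, the protease that starts the contact reaction, stood at 547 ± 36.3 against 654 ± 31.1 CPM (mean ± SD, n = 3), and Kng1, the kininogen from which bradykinin is cut, at 2041 ± 178 against 2418 ± 116 CPM. Kng2, its near copy, stood at 373 ± 33.7 against 386 ± 11.2 CPM, and how reads are divided between them is uncertain. Neither F12 nor Kng1 passed (log2 0.26 and 0.24, adjusted p = 0.16 and 0.251), and both had log2 values below 0 with hepatocyte markers. With library totals the log2 values of F12 and Kng1 were 0.006 and −0.009. On the TPM-like scale the groups overlapped for both, with knockout to control ratios of the means of 1.004 and 0.994. F11 had a log2 value of 0.39 with hepatocyte markers and did not pass there (adjusted p = 0.131, range over 17 alternatives 1.32e-09 to 0.131), whereas Klkb1 passed in each of the 17 alternatives (range over 17 alternatives 1.34e-13 to 0.00655).

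The 4 anticoagulant genes divided. Proc, which encodes the protease precursor protein C, and Serpinc1, which encodes antithrombin, rose with TMM scaling, although Serpinc1 had a log2 value below 0 with hepatocyte markers. Proc stood at 287, 288 and 287 CPM in control livers and 445, 449 and 496 CPM in knockout livers (log2 0.69, SE 0.11, adjusted p = 0.00423) and its controls were nearly equal, below every knockout. Serpinc1 stood at 1507, 1756 and 1719 CPM in control livers and 2527, 2710.1 and 2537 CPM in knockout livers (log2 0.64, SE 0.14, adjusted p = 0.0138), with separate groups. With library totals Serpinc1 had an adjusted p of 0.0583 (range over 17 alternatives 7.05e-06 to 0.939). Of its 8546 exonic bases 2942 lie opposite Zbtb37, a gene at 10.1 ± 0.73 against 11.6 ± 1.42 CPM (mean ± SD, n = 3), and whether counting used strand is not known. Serpind1, heparin cofactor II, stood at 283, 475 and 523 CPM in control livers and 612, 642 and 535 CPM in knockout livers and did not pass (log2 0.48, SE 0.22, adjusted p = 0.149). Control 1 was far below controls 2 and 3.

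Pros1 (ENSMUSG00000022912, chromosome 16, 62854307 to 62929346) fell. It encodes protein S, which assists protein C and is also a ligand of receptors on phagocytes, and it is made by endothelial cells, platelets and other cells besides hepatocytes. Pros1 stood at 93.4, 75.8 and 107 CPM in control livers and 63, 64.9 and 68.1 CPM in knockout livers (log2 −0.49, SE 0.14, adjusted p = 0.0331). All knockouts lay below all controls, control 2 being the nearest. The level of Pros1 per length was 0.198, 0.16 and 0.226 of that of Proc in the controls and 0.0859, 0.0876 and 0.0832 in the knockouts, so that the ratio was lower in every knockout. The call of Pros1 was lost when most single livers were left out. Its adjusted p was 0.0863 without control 1, 0.118 without control 3, and 0.11, 0.0711 and 0.0571 without knockout 1, 2 or 3 (range over 17 alternatives 0.00179 to 0.118), and it kept its direction in all of them. The summed endothelial markers overlapped between the groups, at 199 to 241 CPM in the controls and 165 to 228 CPM in the knockouts. Single markers differed in direction with TMM scaling. Of the 6, 2 were separate and higher (Clec4g and Kdr) and 2 separate and lower (Lyve1 and Cdh5). Across all genes tested, 21.4% were separate and higher and 22.5% separate and lower. The platelet list (Pf4, Ppbp, Itga2b and Gp9) summed to 7.4 to 11.5 CPM in the controls and 4.76 to 6.85 CPM in the knockouts, with Gp9 at 0 counts in all controls and 1 of its 2 tested genes lower (Pf4, adjusted p = 0.0342) while Itga2b did not pass (adjusted p = 0.196). The part of either cell type was not tested.

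The lectin pathway, in which mannose-binding lectins dock on microbial sugars and switch on the MASP proteases, rose in all 4 genes with TMM scaling, but Mbl1, Mbl2 and Masp1 had log2 values below 0 with hepatocyte markers (−0.03, −0.02 and −0.12). Mbl1 stood at 98, 74.1 and 103 CPM in control livers and 130.01, 148 and 150.4 CPM in knockout livers (log2 0.64, SE 0.15, adjusted p = 0.0156). Mbl2 stood at 227, 299 and 304 CPM in control livers and 451, 368 and 451 CPM in knockout livers (log2 0.61, SE 0.16, adjusted p = 0.0236). Both lectin genes had separate groups with TMM scaling, with Mbl2 lowest in control 1 and Mbl1 lowest in control 2. On the TPM-like scale the groups overlapped for Mbl2. Masp2, whose product cleaves C4 and C2, stood at 86.6, 105 and 108 CPM in control livers and 164, 191 and 168 CPM in knockout livers (log2 0.80, SE 0.13, adjusted p = 0.00386). Of the 3307 exonic bases of Masp2, 1817 lie opposite Tardbp (96.5 ± 10.4 against 82.1 ± 1.87 CPM), so its level is uncertain without the strand setting. Masp1, whose product activates MASP-2 and supplies other proteins by splicing, stood at 166, 143 and 161 CPM in control livers and 236, 254 and 206 CPM in knockout livers (log2 0.57, SE 0.13, adjusted p = 0.0138). Its call was lost without control 2 (adjusted p = 0.0544), without knockout 1 (0.0523) and with library totals (0.0757; range over 17 alternatives 0.000768 to 0.643). Mbl2 did not pass without control 1, knockout 1 or knockout 3 (adjusted p = 0.052, 0.0824 and 0.057), nor with library totals (0.133; range over 17 alternatives 0.00239 to 0.951). Mbl1 did not pass with library totals (adjusted p = 0.0644, range over 17 alternatives 0.00123 to 0.912). The ratio of Mbl1 to Mbl2 per length was 0.235 ± 0.064 in the controls and 0.237 ± 0.04 in the knockouts.

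C3, on which all complement routes meet, was the most abundant complement gene and did not pass. It stood at 12098, 9328 and 11608 CPM in control livers and 11723, 14386 and 12176 CPM in knockout livers (log2 0.21, SE 0.20, adjusted p = 0.466), with overlapping groups and log2 values below 0 with library totals (−0.04) and hepatocyte markers (−0.48). Of the 5 genes around C3, 2 rose with TMM scaling, although Cfi had a log2 value of −0.09 with hepatocyte markers. C4b, which forms the C3-cleaving enzyme with C2, stood at 1366, 973 and 1229.6 CPM in control livers and 1826, 2428 and 1912 CPM in knockout livers (log2 0.79, SE 0.18, adjusted p = 0.017). Its near-identical neighbour C4a stood at 4.46 ± 1.57 against 9.5 ± 2.2 CPM (mean ± SD, n = 3), and how reads are divided between the copies is uncertain. Cfi encodes the protease that cuts C3b and C4b and so limits the cascade. It stood at 524, 481 and 559.9 CPM in control livers and 725, 814 and 791 CPM in knockout livers (log2 0.57, SE 0.13, adjusted p = 0.0137), and the groups were separate. Cfi did not pass with library totals (adjusted p = 0.0729). Without control 2 neither passed (adjusted p = 0.0523 for C4b, range over 17 alternatives 0.000132 to 0.755; 0.05002 for Cfi, range over 17 alternatives 0.000114 to 0.713). C2 stood at 29.5, 32.4 and 32.2 CPM in control livers and 35, 34.1 and 36.9 CPM in knockout livers (log2 0.17, SE 0.10, adjusted p = 0.251). Each knockout was slightly above each control with TMM scaling, whereas the groups overlapped on the TPM-like scale. Cfb, factor B of the alternative route, stood at 7.27, 5.08 and 8.52 CPM in control livers and 7.57, 8.9 and 9.27 CPM in knockout livers (log2 0.30, SE 0.21, adjusted p = 0.335), with overlapping groups. Cfb and C2 lie 85 bases apart on chromosome 17, and 2246 of the 2825 exonic bases of Cfb and 1656 of the 3872 of C2 also belong to Gm20547, a gene on the same strand with 0 counts in all 6 livers. The counts of both are uncertain for that reason.

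Terminal components, which build the membrane attack complex, included 4 genes that rose, 1 that fell and 1 that did not pass with TMM scaling, and C8b had a log2 value below 0 with hepatocyte markers. Hc encodes C5, whose cleavage starts the pore, and stood at 552, 423 and 591 CPM in control livers and 809.8, 1086 and 906 CPM in knockout livers (log2 0.84, SE 0.18, adjusted p = 0.0111). C9, the pore-forming subunit, stood at 62.8, 84 and 91.6 CPM in control livers and 112, 202 and 157 CPM in knockout livers (log2 0.98, SE 0.23, adjusted p = 0.016), and knockout 1 was nearest to the controls in both genes. C8 is built from alpha, beta and gamma chains, of which gamma is a lipocalin. C8g (ENSMUSG00000015083, chromosome 2, 25498651 to 25501719) had the largest complement increase, at 103, 106 and 117 CPM in control livers and 228, 289.8 and 252 CPM in knockout livers (log2 1.24, SE 0.13, adjusted p = 0.000812). C8b stood at 79.5, 95.5 and 99.1 CPM in control livers and 120.5, 175 and 136 CPM in knockout livers (log2 0.66, SE 0.16, adjusted p = 0.0204), and C8a at 206, 128 and 162 CPM in control livers and 166, 244 and 279 CPM in knockout livers with overlapping groups (log2 0.47, SE 0.23, adjusted p = 0.162). C8a and C8b lie 11130 bases apart on chromosome 4, in opposite orientation, and C8g lies on chromosome 2. Per length, C8g was 2.22, 1.897 and 2.02 times as high as C8b in the controls and 3.23, 2.82 and 3.15 times in the knockouts. The ratio of C8a to C8b was 1.81, 0.939 and 1.14 in the controls and 0.967, 0.975 and 1.43 in the knockouts. The gamma chain thus increased relative to the beta chain in each knockout, and the alpha chain did not separate. C8b did not pass without control 1 (0.0594), without control 2 (0.0542) or with library totals (0.0726; range over 17 alternatives 0.00219 to 0.949), whereas C8g passed in each of the 17 alternatives (range over 17 alternatives 3.89e-15 to 0.0348).

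C6 (ENSMUSG00000022181, chromosome 15, 4727175 to 4814967) fell, whereas 4 other terminal genes rose. C6 is known as a transcript of Kupffer cells, which are liver-resident macrophages, besides hepatocytes. It stood at 35, 37.2 and 38.7 CPM in control livers and 21, 16.5 and 23.5 CPM in knockout livers (log2 −0.86, SE 0.14, adjusted p = 0.00444), and each knockout was below every control. The fall passed in each of the 17 alternatives (range over 17 alternatives 2.99e-05 to 0.0202), with log2 values from −1.50 to −0.73. Of 6 Kupffer markers (Clec4f, Vsig4, Timd4, Marco, Cd5l and Adgre1) 5 fell, against 13.1% of all genes tested. Their summed level was 752 to 819 CPM in the controls and 220.1 to 492 CPM in the knockouts. Knockout 2, the lowest of the 6 livers in C6, was also the lowest in that sum, and knockout 3 was the highest knockout in both. In controls 1, 2 and 3 the order was opposite, with C6 at 35, 37.2 and 38.7 CPM and the sum at 819, 806 and 752 CPM. No marker of the list was at 0, and the part of Kupffer cell content in the fall of C6 was not tested. On chromosome 15, C9 rose while C6 fell.

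Other genes of the 2 cascades were taken from a list of 72, of which 64 were tested. With TMM scaling 21 rose and 18 fell (32.8% and 28.1%, against 11.9% and 13.1% of all genes). With library totals 14 rose and 27 fell (6.13% and 25.1% of all genes), with hepatocyte markers 1 rose and 34 fell (2.77% and 51.9% of all genes), and without control 2 the number that rose was 12. Of 13 tested complement starters and regulators made in liver, 8 rose, with a median log2 change of 0.50. The collectin Colec10 rose from 18.4 ± 3.13 to 37.4 ± 4.98 CPM, the C1 protease C1ra from 169 ± 20.1 to 264 ± 14.1 CPM and vitronectin, Vtn, from 1502 ± 153 to 2398 ± 258 CPM. Of 10 tested complement genes of myeloid cells, 8 fell. They included the anaphylatoxin receptors C3ar1 (18.3 ± 1.42 to 6.56 ± 0.75 CPM) and C5ar1 (13.9 ± 2.09 to 4.11 ± 0.893 CPM), properdin, Cfp (85.8 ± 4.84 to 37.4 ± 10.2 CPM), and C1qa (154 ± 1.35 to 71.9 ± 19.8 CPM), a chain of the antibody-sensing C1q. The general myeloid markers summed to 199 to 245 CPM in the controls and 55.1 to 117 CPM in the knockouts, and 5 of these 6 markers fell. Of the 4 membrane regulators 0 passed by edgeR, DESeq2 or limma-voom (1 at an unadjusted p under 0.05 by edgeR).

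Regulators of clotting and fibrinolysis divided, 5 of 14 higher and 5 lower with TMM scaling (35.7% each, against 11.9% and 13.1% of all genes). Hrg, a histidine-rich plasma glycoprotein, rose from 429 ± 78.2 to 1003 ± 95.2 CPM. The urokinase receptor Plaur fell from 11.4 ± 3.33 to 1.72 ± 0.4 CPM and tissue plasminogen activator, Plat, from 10.4 ± 4.87 to 0.976 ± 0.698 CPM. On the tissue side, the protease-activated receptor F2rl1 fell from 4.58 ± 1.84 to 0.305 ± 0.226 CPM and F13a1, the catalytic partner of F13b that macrophages and platelets make, from 1.96 ± 1.32 to 0.26 ± 0.186 CPM. F3, tissue factor, with which factor VII starts clotting, rose from 3.03 ± 0.536 to 6.64 ± 2.54 CPM. F13a1 and F13b thus moved in opposite directions. The counts of F13a1 were low, at 86, 17 and 38 in the controls and 1, 7 and 8 in the knockouts. Those of F2rl1 were 109, 135 and 66 in the controls and 10, 8 and 1 in the knockouts. Of 5 genes for gamma-carboxylation and secretion of clotting factors, 2 rose, the cargo receptor Lman1 (219 ± 23.5 to 310.2 ± 18.5 CPM) and the carboxylase Ggcx (61.9 ± 9.29 to 84.7 ± 6.96 CPM).

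Of 12 genes for regulators of these genes in hepatocytes, 5 rose and 3 fell with TMM scaling (41.7% and 25%, against 11.9% and 13.1% of all genes). Nr1h4, the bile acid receptor FXR, rose from 71.4 ± 14.1 to 171 ± 14.4 CPM and Foxa2 from 18.3 ± 3.37 to 41 ± 7.22 CPM. Cebpd fell from 31.9 ± 10.5 to 9.43 ± 2.47 CPM and Osmr, the oncostatin M receptor, from 20.2 ± 8.48 to 4.14 ± 1.37 CPM. Chosen after their values were seen, Cebpa rose from 248 ± 54.1 to 526 ± 67.7 CPM, while Cebpb fell from 260.4 ± 75.7 to 137 ± 33.2 CPM. Hnf4a stood at 615 ± 25.6 against 765 ± 161 CPM and Stat3 at 206 ± 50.5 against 149.9 ± 15.3 CPM, and neither passed (adjusted p = 0.217 and 0.115).

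**Figure D5:**
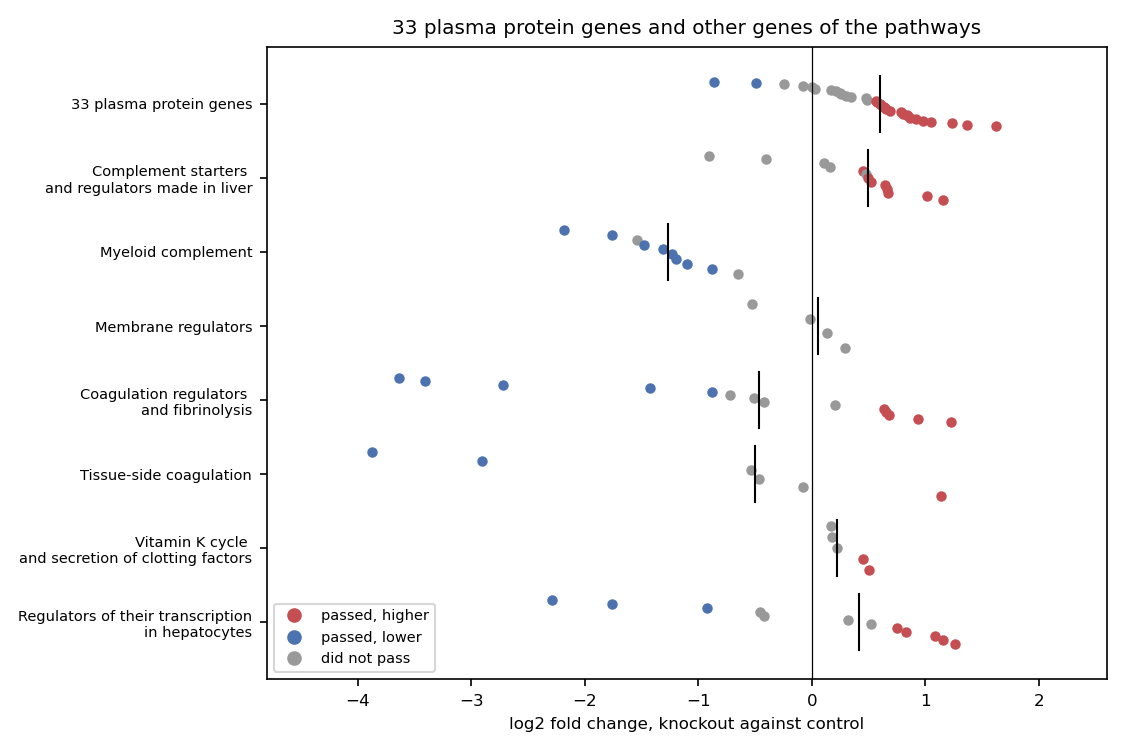
Points are genes, placed by their log2 fold change with TMM scaling, in rows for the 33 plasma protein genes and for each group of the list of 72; red points rose, blue points fell, grey points did not pass, and black bars are medians. The myeloid complement row lies wholly below 0, and the rows of liver-made complement and of the 33 genes lie mostly above 0, where they do not all remain with scaling on hepatocyte markers.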

How the data were processed

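Whole-liver RNA was sequenced in 6 mice, 1 column of the table per mouse. The values are raw read counts per Ensembl gene as deposited; per the submitters' processing notes, the tools were featureCounts 1.5.0-p3, HISAT2 2.0.5 and StringTie 1.3.3b (order and roles unstated) and the build GRCm38.p6. Whether counting used strand, how multiply mapped reads were treated and which annotation was used is not given in the sources used here. Per the labels' protocols, mRNA was selected with poly-T beads and primed with random hexamers. All columns were used, and 54495 of 54532 genes matched GENCODE M21. Within each group every pair of livers differed by more than sampling noise.

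Genes were filtered by group (filterByExpr), TMM-scaled and tested with edgeR 4.0.16 in R 4.3.3, quasi-likelihood, without covariates, at an adjusted p under 0.05 (Benjamini-Hochberg over all tested genes). The SE is the log2 value divided by the square root of F. Labels name separate mice, and p-values measure the spread between these livers. Alternatives were DESeq2 1.42.0, limma-voom (limma 3.58.1), other scalings and filters, protein-coding genes only, a replicate block, other thresholds, and leaving out each liver. The edgeR steps were run on simulated counts with few changed genes, about as many higher as lower. That simulation could not test the choice of scaling. Figures used matplotlib 3.10.9. The 33 genes and all lists were chosen with earlier results of these data known. Named genes were all 33, and up to 4 genes per group of the list of 72 that passed, by smallest p; some of these are not reported here. Of the marker symbols, Tf was not matched. No protein sequences were used here.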

Additional observations from a re-analysis of the deposited data

How the results depend on the processing

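Of the 33 genes, 14 kept their side of the threshold in all 17 alternatives (F7, Klkb1, C8g and C6, and 10 that did not pass in any). Library totals gave 12 genes higher and a median of 0.34. Hepatocyte-marker scaling, added after seeing the data, gave 3 higher, a median of −0.07, and 8066 genes called in all, with 1 of the list of 72 higher and 34 lower; log2 values turned to −0.071 for F2, −0.0195 for Serpinc1, −0.0325 for Mbl1, −0.017 for Mbl2, −0.12 for Masp1, −0.0945 for Cfi and −0.016 for C8b. At an adjusted p under 0.01, 9 of the 33 genes were higher and 1 lower, 10 of the list of 72 were higher, and 1515 genes were called in all. Leaving out single livers gave 15 to 19 of the 33 genes higher, 1 to 2 lower, 12 to 18 of the list of 72 higher and 2275 to 3413 genes in all; the share of counts taken by the 33 genes, 0.041 percentage points higher in the knockouts, ranged from −0.41 to 0.37. Mouse numbers did not pair the livers (correlations of same-numbered livers −0.027, 0.044 and −0.018, and not every liver correlated best with its own number); a replicate block on them gave 15 of the 33 genes higher, 2 lower, and 3086 genes in all. The 3 livers per group limit what can be detected in fibrinogen. The lowest CPM of the 33 genes was that of Cfb, at 5.08 in control 2. Its counts are uncertain, because most of its exonic bases also belong to Gm20547.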
